A study of Mus musculus with 20 samples.

Results

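Gene expression in bone marrow cells labelled as endothelial was compared between 24 hours and 6 hours after irradiation. Markers of blood and stromal cells also gave signal in this RNA, so a change below is not assigned to endothelial cells. The comparison takes every array labelled 24 hours (5) and every array labelled 6 hours (5), which is 10 of the 20 arrays in the series, and covers 18193 genes. The cells are labelled bone marrow VE-cadherin+ endothelial cells of adult C57/Bl6 mice aged 8 to 10 weeks. Mice of both groups had received 5 Gy of total body irradiation, a dose to the whole animal and not to the endothelium alone. The other arrays are 5 from non-irradiated mice, used below as a baseline level, and 5 from day 14 after the same dose, which enter the model only. No genotype, transgene or other agent is given, and although arrays are labelled as biological replicates, whether each held the cells of 1 mouse or of a pool is not said. If mice were pooled or shared, the p-values below measure only the spread between these preparations.

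Ionizing radiation breaks DNA, and the breaks activate the transcription factor p53, whose targets halt the cell cycle, repair DNA or trigger cell death. Damaged cells also switch on NF-kB and the immediate early factors of the AP-1 family, usually for a short time, and may later turn on interferon genes, which are driven through an element called ISRE in their promoters. In bone marrow the sinusoidal endothelium lines the vessels through which blood cells leave. Sinusoidal and arterial endothelium supply factors such as Kit ligand, Cxcl12 and Il7 that blood-forming cells depend on.

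Levels are signals of Affymetrix probe sets, and each gene is represented by its brightest probe set. Signals of different genes are not compared with each other. A log2 change is the mean of log2(signal + 1) at 24 hours minus that at 6 hours, given with its standard error (SE) from limma, so a positive value is higher at 24 hours. A gene is called where the Benjamini-Hochberg adjusted p over all 18193 genes is under 0.05 in a limma model of all 4 groups. Mean signals carry the SD over 5 arrays.

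The 6-hour arrays differed more among themselves than any other group: the median over genes of the SD of log2 signal was 0.34 at 24 hours, 0.65 at 6 hours, 0.40 in the non-irradiated group and 0.33 at day 14. A model with a common spread for all groups can give too small a p in this situation, so counts are also given from a fit on the 10 arrays alone, which rests on the spread of these 2 groups. Technical measures also separated the groups. The Gapdh 3′ probe set exceeded the 5′ probe set by 0.774 ± 0.056 log2 units at 24 hours and by 1.58 ± 0.288 at 6 hours (exact permutation test, two-sided p = 0.00794, adjusted p = 0.0119 over 6 measures). The mean log2 signal of the hybridization control probe sets was 12.17 ± 0.164 at 24 hours and 12.84 ± 0.158 at 6 hours (exact permutation p = 0.00794, adjusted p = 0.0119), and the background signal, the 95th percentile of probe sets for absent bacterial transcripts, was 26.6 ± 3.9 at 24 hours and 41.3 ± 8.22 at 6 hours (exact permutation p = 0.00794, adjusted p = 0.0119). This is the smallest p that 5 arrays against 5 can give, and none of these 3 measures overlapped between the groups. The same difference between 3′ and 5′ probe sets of Actb was -0.02 at 24 hours and -0.09 at 6 hours (exact permutation p = 0.103). Effects of time and of these array properties therefore cannot be told apart. Non-irradiated arrays had a Gapdh difference of 1.33 ± 0.040 and hybridization controls of 12.77 ± 0.084, nearer the 6-hour values. At day 14 these were 0.894 ± 0.121 and 12.14 ± 0.158, nearer the 24-hour values. Levels at 24 hours set beside the non-irradiated mean below thus also carry a difference in these 2 measures. A fit with the Gapdh difference as a covariate called fewer genes, 875 higher and 580 lower against 2493 and 1831, and its counts are given beside those of the lists. In that fit 84 of the 177 genes named by rule lost their call and 7 others turned sign. The adjusted p of single genes below comes from the model without the covariate unless another fit is named.

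**Figure D1:**
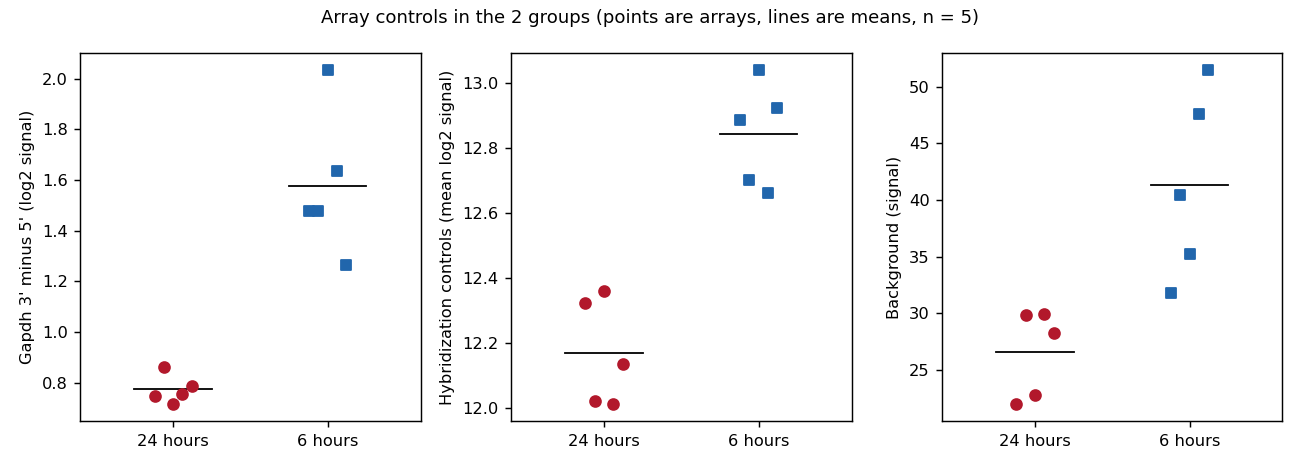
Array properties of the 5 arrays at 24 hours (red circles) and the 5 arrays at 6 hours (blue squares), with lines at the group means: the Gapdh 3′ minus 5′ difference in log2 signal, the mean log2 signal of the hybridization controls and the background signal. The groups do not overlap in any of the 3 panels.

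Over all genes, 2493 were higher at 24 hours than at 6 hours (13.7%) and 1831 were lower (10.1%), which is 4324 genes or 23.8% in either direction. On the 10 arrays alone 1635 genes were higher (8.99%) and 1264 were lower (6.95%). Of these, 1629 and 1239 were called in the same direction by both fits. Changes of at least 2-fold made up 1231 of the higher and 837 of the lower genes, and changes of at least 4-fold 311 and 177. For 1453 genes (7.99%) all 5 arrays at 24 hours lay above all 5 at 6 hours, and for 1202 genes (6.61%) all 5 lay below. The median change over all genes was -0.05, with quartiles of -0.55 and 0.44. How a list of genes changed is read below against these shares and this median. The lists were chosen with earlier results of these data known, so the shares serve as a scale and not as a test. Where counts are given for both fits as equal, the counts are meant and not the identity of the genes. The lists overlap, and some genes are counted in more than 1.

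**Figure D2:**
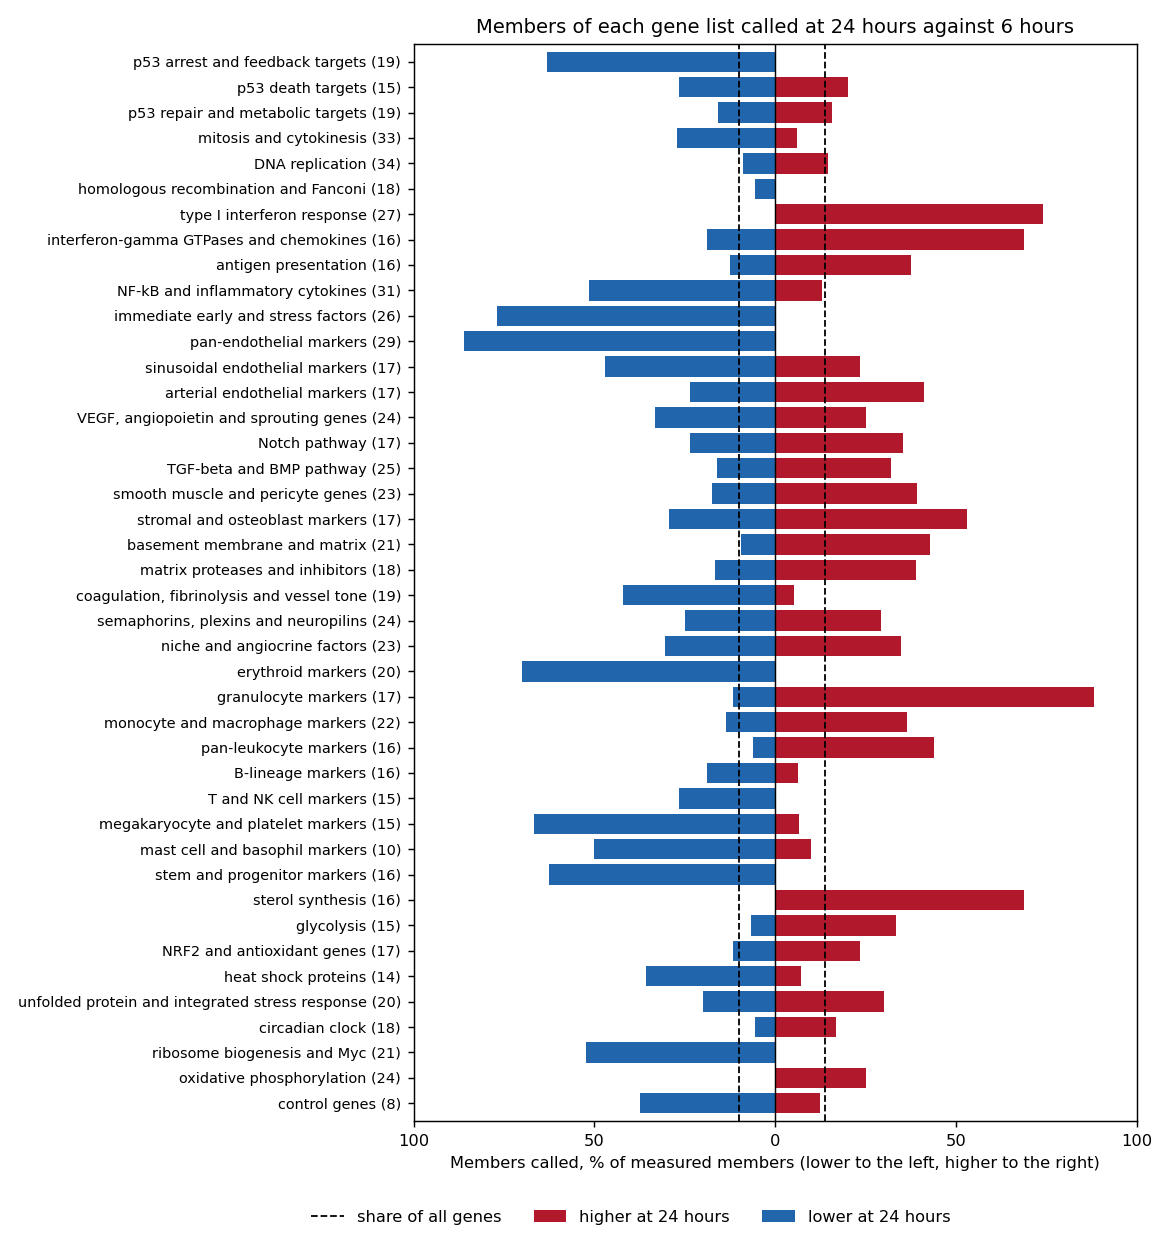
Share of the measured members of each gene list that was called higher (red, to the right) or lower (blue, to the left) at 24 hours against 6 hours, in percent, with the number of measured members in brackets. The dashed lines mark the shares of all genes, 13.7% higher and 10.1% lower. Type I interferon genes and granulocyte markers extend furthest to the right, and pan-endothelial markers and immediate early factors furthest to the left.

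Interferon-stimulated genes were higher at 24 hours. Of 27 measured members of a type I interferon list, 20 rose and 0 fell, against 13.7% and 10.1% of all genes. On the 10 arrays alone 18 rose and 0 fell, in 17 the groups did not overlap, and 14 rose in the fit with the Gapdh covariate. The median change of the list was 1.25. The mean log2 signal of the 27 genes lay between 10.37 and 10.48 on the 24-hour arrays, between 8.97 and 9.37 on the 6-hour arrays and between 8.61 and 8.86 on the non-irradiated arrays. The promoters of 3 members that rose are shown because they carry the ISRE letters GAAA, any 2 bases, GAAA, searched on both strands in the 250 bases before the annotated start (RefSeq, build GRCm38.p6). They lie at chr5:120777660-120777909 (minus strand) for Oas3, at chr19:34583279-34583528 (plus strand) for Ifit3 and at chr19:34640639-34640888 (plus strand) for Ifit1, and capitals mark the matches on either strand.
Oas3: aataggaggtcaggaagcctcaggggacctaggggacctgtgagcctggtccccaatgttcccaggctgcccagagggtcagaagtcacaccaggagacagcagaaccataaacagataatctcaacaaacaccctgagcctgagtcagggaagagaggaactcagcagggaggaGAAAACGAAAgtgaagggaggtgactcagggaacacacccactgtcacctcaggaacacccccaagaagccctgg
Ifit3: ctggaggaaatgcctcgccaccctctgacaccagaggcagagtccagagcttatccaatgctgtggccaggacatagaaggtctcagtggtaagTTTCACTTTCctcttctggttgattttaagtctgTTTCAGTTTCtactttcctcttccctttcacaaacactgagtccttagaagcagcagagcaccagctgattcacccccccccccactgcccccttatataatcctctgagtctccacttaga
Ifit1: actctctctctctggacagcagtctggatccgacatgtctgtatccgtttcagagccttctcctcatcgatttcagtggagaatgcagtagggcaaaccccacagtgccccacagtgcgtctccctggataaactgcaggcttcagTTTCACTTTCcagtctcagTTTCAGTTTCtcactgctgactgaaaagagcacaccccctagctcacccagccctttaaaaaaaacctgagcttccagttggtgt
A match stood in 7 of the 17 rising members that have a promoter in the table (41.2%), namely Bst2, Ifit1, Ifit3, Oas1a, Oas3, Rsad2 and Stat2, against 936 of 27025 promoters of all genes (3.46%). Trim30a was the only further match among the 20 measured members with a promoter. A match describes the letters only.

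Usp18, a protease that removes Isg15 from proteins and dampens interferon receptor signalling, had signals of 1578, 1634, 1774, 1629 and 1771 at 24 hours, against 386, 328, 300, 170 and 150 at 6 hours. Every 24-hour array was at least 4-fold above every 6-hour array, and the non-irradiated mean was 231 ± 83.5, within the range of the 6-hour arrays. Its log2 change was 2.74 ± 0.27 (limma adjusted p = 2.00e-08). Oas3, an oligoadenylate synthetase that senses double-stranded RNA, had signals of 704, 768, 854, 933 and 978 at 24 hours, against 141, 122, 214, 53.3 and 238 at 6 hours. The lowest 24-hour array of Oas3 lay above the highest 6-hour array, with a log2 change of 2.62 ± 0.28 (limma adjusted p = 1.14e-07). Ifit3, a tetratricopeptide protein that acts with Ifit1 against viral RNA, had signals of 3684, 3811, 4148, 3303 and 3439 at 24 hours, against 896, 879, 560, 460 and 668 at 6 hours. Ifit1, which binds RNA caps that lack methyl marks, had signals of 6304, 6086, 6889, 6266 and 5966 at 24 hours, against 1488, 1766, 1862, 2177 and 1149 at 6 hours. Neither gene overlapped between the groups, and the log2 changes were 2.45 ± 0.22 for Ifit3 and 1.93 ± 0.22 for Ifit1 (limma adjusted p = 5.08e-09 and 2.93e-07). The non-irradiated mean was 347 ± 156 for Ifit1, below both irradiated groups, so Ifit1 was already above that mean at 6 hours. Cmpk2, a mitochondrial nucleotide kinase encoded next to Rsad2, averaged 1106 ± 159 at 24 hours and 249 ± 129.6 at 6 hours (log2 change 2.36 ± 0.30, limma adjusted p = 1.28e-06).

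The factors that drive the response were also higher. Irf7, the master regulator of interferon genes, had signals of 817, 1039, 881, 988 and 902 at 24 hours, against 406, 301, 400, 306 and 351 at 6 hours, with no overlap and a log2 change of 1.40 ± 0.22 (limma adjusted p = 3.51e-05). Stat2 averaged 1139 ± 73.1 at 24 hours and 575 ± 119 at 6 hours (log2 change 1.01 ± 0.19) and Irf9, its partner, 1500 ± 129.9 at 24 hours and 1051 ± 164 at 6 hours (log2 change 0.52 ± 0.17, limma adjusted p = 0.0276). Mx1 and Mx2, dynamin-like antiviral GTPases, were not called: their log2 changes were 1.24 ± 0.63 and 1.66 ± 0.63, and the groups overlapped. Rsad2, or viperin, passed in the 4-group model (log2 change 0.41 ± 0.11, limma adjusted p = 0.00709) and not on the 10 arrays alone (adjusted p = 0.0518). Measured against the non-irradiated arrays, the median difference of the list was 1.45 at 24 hours and 0.48 at 6 hours, which share those arrays.

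**Figure D3:**
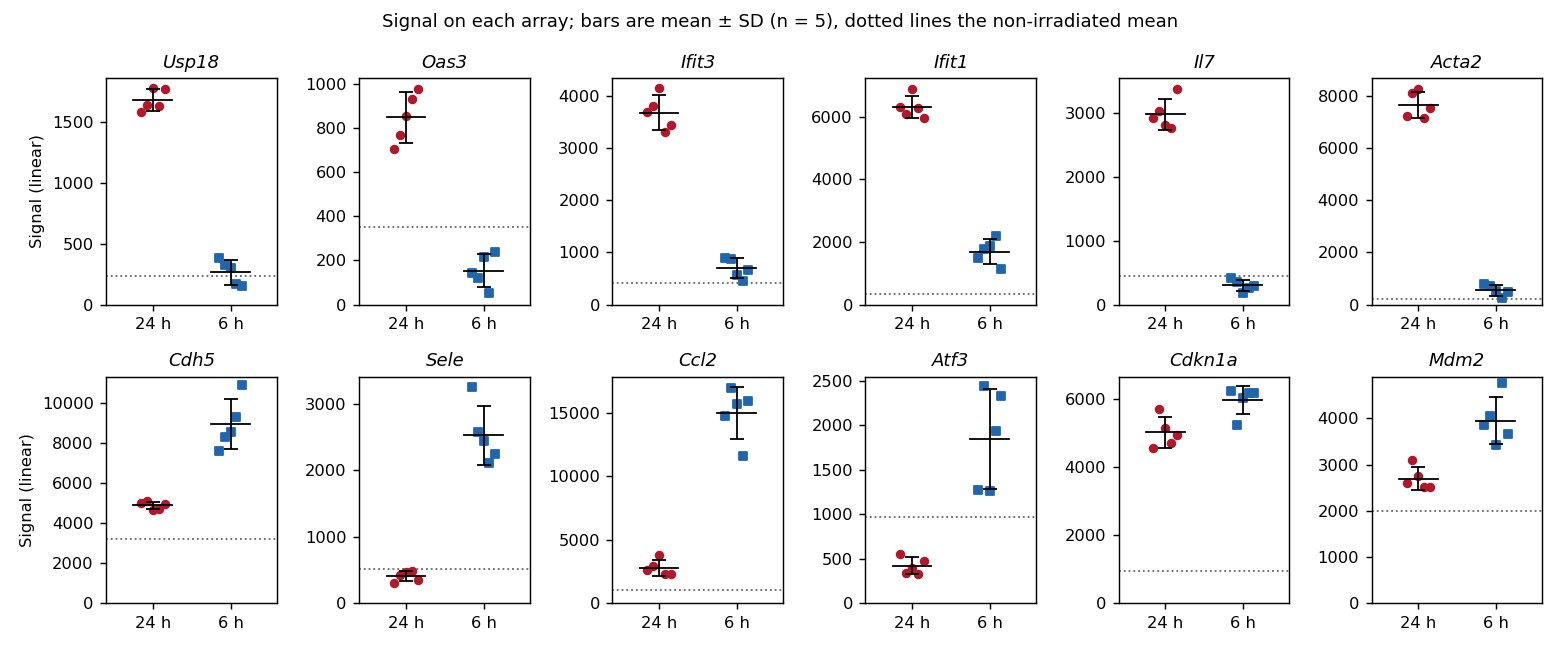
Signal on each array (linear axes from 0) of 12 genes at 24 hours (red circles) and 6 hours (blue squares), with bars at the mean ± SD (n = 5) and dotted lines at the non-irradiated mean. Usp18, Oas3, Ifit3, Ifit1, Il7 and Acta2 are higher at 24 hours, Cdh5, Sele, Ccl2, Atf3 and Mdm2 are lower, none of these 11 overlaps, and the 2 groups overlap for Cdkn1a.

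Genes induced mainly by interferon-gamma rose along with them. In this list of GTPases and chemokines, 11 of 16 rose and 3 fell, with a median change of 0.86 (11 and 1 on the 10 arrays, 5 and 1 with the covariate). Irgm2, an immunity-related GTPase that guards membranes against intracellular pathogens, had signals of 3364, 3197, 3255, 3011 and 3017 at 24 hours, against 905, 962, 821, 1117 and 887 at 6 hours. The groups were separated by a wide gap (log2 change 1.76 ± 0.12, limma adjusted p = 6.55e-11). Irgm1 averaged 710.5 ± 72.7 at 24 hours and 198 ± 140.5 at 6 hours (log2 change 2.14 ± 0.36) and Gbp6, a guanylate-binding protein, 909.7 ± 186 at 24 hours and 339 ± 207 at 6 hours (log2 change 1.71 ± 0.42). Cxcl10, a chemokine that draws T cells, had signals of 2313, 2315, 2321, 2290 and 2264 at 24 hours, against 893, 945, 1056, 1803 and 1029 at 6 hours. The 24-hour arrays lay close together and all exceeded the 6-hour arrays, whose mean stood above the non-irradiated mean of 356 ± 139. Ciita, the activator of class II genes, went the other way and averaged 28.4 ± 28 at 24 hours and 140.3 ± 48.4 at 6 hours, with 3 of 5 arrays at or below background at 24 hours (log2 change -2.60 ± 0.53, and -1.99 with signals raised to background, limma adjusted p = 6.21e-04), and its 3 probe sets differed in direction.

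Of 16 antigen presentation genes 6 rose and 2 fell (3 and 2 on the 10 arrays, 3 and 0 with the covariate). Their median was 0.33. Psmb10, a catalytic subunit of the immunoproteasome, averaged 2588 ± 222 at 24 hours and 1586 ± 596 at 6 hours (log2 change 0.80 ± 0.20, limma adjusted p = 0.00408). Psmb8, another such subunit, averaged 2222 ± 178 at 24 hours and 1181 ± 273 at 6 hours (log2 change 0.94 ± 0.15), while its second probe set changed by -1.14. Tap2, which carries peptides into the endoplasmic reticulum, and Erap1, which trims them, were called in the 4-group model (log2 changes 0.76 ± 0.27 and 1.04 ± 0.34) but not on the 10 arrays (limma adjusted p = 0.131 and 0.0989). The class I light chain B2m was slightly lower at 24 hours, 19549 ± 2111 at 24 hours and 23579 ± 2399 at 6 hours (log2 change -0.27 ± 0.08), with overlapping groups, and was higher (0.21) after quantile normalization.

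NF-kB targets and inflammatory cytokines were lower at 24 hours than at 6 hours. Of 31 measured members 16 fell and 4 rose, and 15 of the 31 lay entirely below their 6-hour arrays, against 6.61% of all genes. The median change was -1.07, and the count was 16 and 3 on the 10 arrays and 11 and 1 with the Gapdh covariate. The median difference from the non-irradiated arrays was 0.12 at 24 hours and 1.01 at 6 hours. Ccl2, the chemokine that recruits monocytes, had signals of 2622, 2913, 3751, 2264 and 2297 at 24 hours, against 14763, 17023, 15700, 11630 and 15998 at 6 hours. Each 6-hour array exceeded each 24-hour array at least 3-fold, and the non-irradiated mean was 1045 ± 367 (log2 change -2.45 ± 0.17, limma adjusted p = 8.72e-11). Cxcl1, a neutrophil chemokine, had signals of 2769, 2146, 2154, 1844 and 2285 at 24 hours, against 13194, 11584, 13320, 9379 and 15438 at 6 hours. Its 24-hour arrays scattered around the non-irradiated mean of 2078 ± 375 (log2 change -2.48 ± 0.13, limma adjusted p = 6.07e-13). Il6, a cytokine of the acute phase, had signals of 131, 108, 150, 94.5 and 114 at 24 hours, against 683, 773, 750, 590 and 748 at 6 hours. The groups of Il6 did not overlap either, and the 24-hour mean of 119.5 was close to the non-irradiated mean of 119 (log2 change -2.57 ± 0.28).

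Adhesion molecules of activated endothelium belonged to the same group. Sele, or E-selectin, on which leukocytes roll, had signals of 300, 417, 472, 474 and 343 at 24 hours, against 3261, 2578, 2442, 2108 and 2246 at 6 hours. It was the member that fell furthest (log2 change -2.66 ± 0.22, limma adjusted p = 1.26e-09), and its non-irradiated mean was 516 ± 142. Selp, or P-selectin, averaged 1222 ± 272 at 24 hours and 4396 ± 1152 at 6 hours (log2 change -1.83 ± 0.21). The feedback inhibitors fell as well: Tnfaip3, a ubiquitin-editing enzyme, averaged 969 ± 216 at 24 hours and 3688 ± 630.0 at 6 hours (log2 change -1.94 ± 0.16) and Nfkbia, the inhibitor IkB-alpha, 6246 ± 321 at 24 hours and 13210 ± 1644 at 6 hours (log2 change -1.07 ± 0.08). Ccl4, a chemokine of macrophages and NK cells, averaged 216 ± 39.6 at 24 hours and 1463 ± 681 at 6 hours (log2 change -2.62 ± 0.35).

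Not all inflammatory genes followed. Il1b had signals of 1532, 1273, 1324, 1400 and 1196 at 24 hours, against 853, 358, 815, 535 and 227 at 6 hours. All of its 24-hour arrays lay above the 6-hour arrays and near the non-irradiated mean of 1232 ± 164 (log2 change 1.43 ± 0.26, limma adjusted p = 1.68e-04). Cxcl2, like Cxcl1 a neutrophil chemokine, averaged 2924 ± 383 at 24 hours and 1512 ± 377 at 6 hours (log2 change 0.98 ± 0.18). Vcam1, which holds leukocytes through integrins, changed by 0.18 ± 0.07 (limma adjusted p = 0.0455, 0.0732 on the 10 arrays), against a non-irradiated mean of 6161 ± 345. A loose NF-kB pattern (GGG and CC with any 5 bases between them) was present in 10 of 11 falling members with a promoter. It was also present in 18 of 22 measured members with a promoter, in 61.1% of genes on the array and in 48.7% of all promoters.

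Immediate early genes, which answer growth factors and stress within minutes to hours, were lower at 24 hours almost throughout. Of 26 measured members 20 fell and 0 rose (19 and 0 on the 10 arrays, 13 and 0 with the covariate), with a median of -0.77. Atf3, a stress-induced bZIP factor, had signals of 552, 336, 390, 328 and 474 at 24 hours, against 1273, 2440, 1264, 1938 and 2328 at 6 hours. No 24-hour array reached the lowest 6-hour array, and the non-irradiated mean of 973 ± 256 lay between the groups (log2 change -2.12 ± 0.23, limma adjusted p = 9.11e-08). Fosb, an AP-1 subunit, had signals of 3214, 2829, 2967, 2963 and 2894 at 24 hours, against 8236, 7938, 8996, 7891 and 7713 at 6 hours. The spread within each group was small beside the gap (log2 change -1.46 ± 0.10, limma adjusted p = 4.59e-11). Maff, a small Maf factor, averaged 1193 ± 206 at 24 hours and 4063 ± 343 at 6 hours (log2 change -1.78 ± 0.18), and Ier3, a short-lived survival factor, 1917 ± 139.9 at 24 hours and 6166 ± 1019 at 6 hours (log2 change -1.67 ± 0.12). Dusp6, Egr2, Fosl1, Egr3, Nr4a2 and Dusp2 were the 6 members not called.

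Myc, which drives ribosome production and growth, had signals of 2554, 3292, 2571, 2582 and 2441 at 24 hours, against 6173, 5665, 6155, 6241 and 6083 at 6 hours. The groups did not overlap although 1 array stood apart in each (log2 change -1.18 ± 0.09, limma adjusted p = 4.58e-10). The list of ribosome biogenesis genes with Myc and Mycn fell in 11 of 21 members and rose in 0, in both fits (3 and 0 with the covariate). The median over the list was -0.40. Gnl3, or nucleostemin, averaged 1069 ± 102 at 24 hours and 2199 ± 664 at 6 hours (log2 change -0.99 ± 0.16), and Utp20, a processome subunit, 478 ± 164 at 24 hours and 982 ± 461 at 6 hours (log2 change -0.99 ± 0.26), with overlap between groups for Utp20 and a change of 0.092 with the covariate, where it was not called. Heat shock proteins fell in 5 of 14 members and rose in 1 (4 and 0 on the 10 arrays, 1 and 0 with the covariate). Over the members the median was -0.14. Hspa1b, the inducible Hsp70, averaged 1128 ± 82.6 at 24 hours and 3320 ± 899 at 6 hours (log2 change -1.51 ± 0.15), and Hspa8, the constitutive form, 15915 ± 1219 at 24 hours and 25154 ± 2316 at 6 hours (log2 change -0.66 ± 0.07). Hspa1a, nearly identical to Hspa1b in sequence, changed by -0.58 ± 0.16 and was not called on the 10 arrays (adjusted p = 0.0715).

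The unfolded protein and integrated stress list went both ways: 6 of 20 rose and 4 fell in both fits (2 and 3 with the covariate). The list's median change was -0.01. The disulfide isomerases Pdia6 and Pdia4, which fold secreted proteins, averaged 2930 ± 224 at 24 hours and 1197 ± 184 at 6 hours for Pdia6 and 3925 ± 162 at 24 hours and 1919 ± 466 at 6 hours for Pdia4 (log2 changes 1.30 ± 0.12 and 1.06 ± 0.13); a second probe set of each changed by -0.04 and -0.54. Ppp1r15a, or Gadd34, which restores translation after stress, averaged 700.0 ± 62.9 at 24 hours and 1637 ± 292 at 6 hours (log2 change -1.21 ± 0.14, limma adjusted p = 2.59e-07), and Atf3 is counted here too.

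p53 targets of cell cycle arrest and feedback fell at 24 hours in most members, and Cdkn1a was not called. Of 19 measured members 12 fell and 0 rose in both fits, with a median of -0.50. With the Gapdh covariate 4 fell and 1 rose. Cdkn1a, the p21 inhibitor of cyclin-dependent kinases, had signals of 4547, 5716, 5162, 4704 and 4956 at 24 hours, against 6232, 5236, 6030, 6176 and 6169 at 6 hours. The groups overlapped, and the log2 change of -0.25 ± 0.10 was not called (limma adjusted p = 0.0588), but it passed without replicate 2 of the 24-hour arrays or replicate 2 of the 6-hour arrays (limma adjusted p = 0.0376 and 0.0276). All 10 arrays lay more than 4-fold above the non-irradiated mean of 943 ± 66.8, and the other probe set changed by -0.83. Mdm2, the ubiquitin ligase that degrades p53, had signals of 2598, 3108, 2751, 2506 and 2504 at 24 hours, against 3846, 4045, 3429, 4763 and 3654 at 6 hours. All 24-hour arrays lay below the 6-hour arrays and above the non-irradiated mean of 1990 ± 350.2 (log2 change -0.55 ± 0.12, limma adjusted p = 0.0011). Plk2, a polo-like kinase induced by p53, had signals of 938, 921, 965, 935 and 721 at 24 hours, against 2640, 2656, 2497, 1750 and 2304 at 6 hours, without overlap (log2 change -1.39 ± 0.18, limma adjusted p = 1.79e-06).

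Others in the arrest group that fell were Sesn1, a sestrin that restrains growth through mTORC1, with 744 ± 139 at 24 hours and 1565 ± 341 at 6 hours (log2 change -1.07 ± 0.21), and Gtse1, a microtubule protein that exports p53, with 293 ± 33.9 at 24 hours and 617 ± 198 at 6 hours (log2 change -1.03 ± 0.21). Among 15 p53 targets of cell death, 4 fell and 3 rose (5 and 2 on the 10 arrays, 1 and 0 with the covariate). Their median was -0.39. Tnfrsf10b, the death receptor for TRAIL, averaged 342 ± 85.8 at 24 hours and 955 ± 278 at 6 hours (log2 change -1.45 ± 0.31, limma adjusted p = 8.88e-04). Pmaip1, or Noxa, averaged 411 ± 51.5 at 24 hours and 844 ± 333 at 6 hours (log2 change -0.97 ± 0.27), and Pidd1, a scaffold for caspase activation, 184 ± 26.9 at 24 hours and 495 ± 290.4 at 6 hours (log2 change -1.27 ± 0.27). Bbc3, or Puma, changed by -1.29 ± 0.55 and was not called. Tigar, which lowers glycolytic flux, was higher, with 410.2 ± 71.9 at 24 hours and 180.4 ± 114 at 6 hours (log2 change 1.41 ± 0.41).

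In the repair and metabolic group 3 of 19 fell and 3 rose (2 and 3 on the 10 arrays, 1 and 2 with the covariate). The median over the list was -0.10. Ak1, an adenylate kinase, rose, with 2772 ± 111 at 24 hours and 1200 ± 157 at 6 hours and a non-irradiated mean of 367 ± 62.8 (log2 change 1.22 ± 0.16, limma adjusted p = 2.83e-06). Dcxr, a sugar reductase, fell, with 650.5 ± 66.2 at 24 hours and 1245 ± 278 at 6 hours and a non-irradiated mean of 103 ± 21.8 (log2 change -0.91 ± 0.23).

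Calls among proliferation genes depended on the fit. Of 33 mitosis genes 9 fell and 2 rose, with a median of -0.22, and only 3 and 1 were called on the 10 arrays. With the covariate 1 fell and 2 rose, and the median was 0.21. Mki67, a nuclear antigen of proliferating cells, was clear of overlap, with signals of 4661, 5467, 5563, 4693 and 5544 at 24 hours, against 9142, 8075, 9832, 7897 and 9390 at 6 hours. Its level at both times was below the non-irradiated mean of 18052 ± 367 (log2 change -0.77 ± 0.08, limma adjusted p = 3.23e-08). Incenp, which carries the aurora B kinase to centromeres, averaged 3090 ± 367 at 24 hours and 5841 ± 2429 at 6 hours (log2 change -0.84 ± 0.16, and 0.48 with the Gapdh covariate, where it was not called), while Aurkb itself, at 542 ± 97.4 at 24 hours and 361 ± 183 at 6 hours, and Spc25, a kinetochore subunit, at 436 ± 109 at 24 hours and 810.2 ± 338 at 6 hours, were not called on the 10 arrays (adjusted p = 0.186 and 0.0895). Of 34 replication genes 5 rose and 3 fell, with 2 and 0 on the 10 arrays, 2 and 2 with the covariate and a median of -0.04. Those 2 were Chaf1b, a histone chaperone subunit, at 353 ± 72.8 at 24 hours and 121 ± 57 at 6 hours (log2 change 1.68 ± 0.29), and Rrm2, which supplies deoxynucleotides, at 4016 ± 628 at 24 hours and 2634 ± 833 at 6 hours (log2 change 0.65 ± 0.15). Both stood below their non-irradiated means of 1232 ± 385 and 13413 ± 789.9, and neither was called with the covariate. The second probe set of Chaf1b changed by -0.33, and its call was lost on the mean of probe sets (limma adjusted p = 0.265). Of 18 homologous recombination and Fanconi genes, 1 fell (Eme1) and 0 rose, and none was called on the 10 arrays. The list's median change was -0.35. With the covariate 1 fell and 0 rose, the median was 0.29, and Eme1 was not called (limma adjusted p = 0.559).

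**Figure D4:**
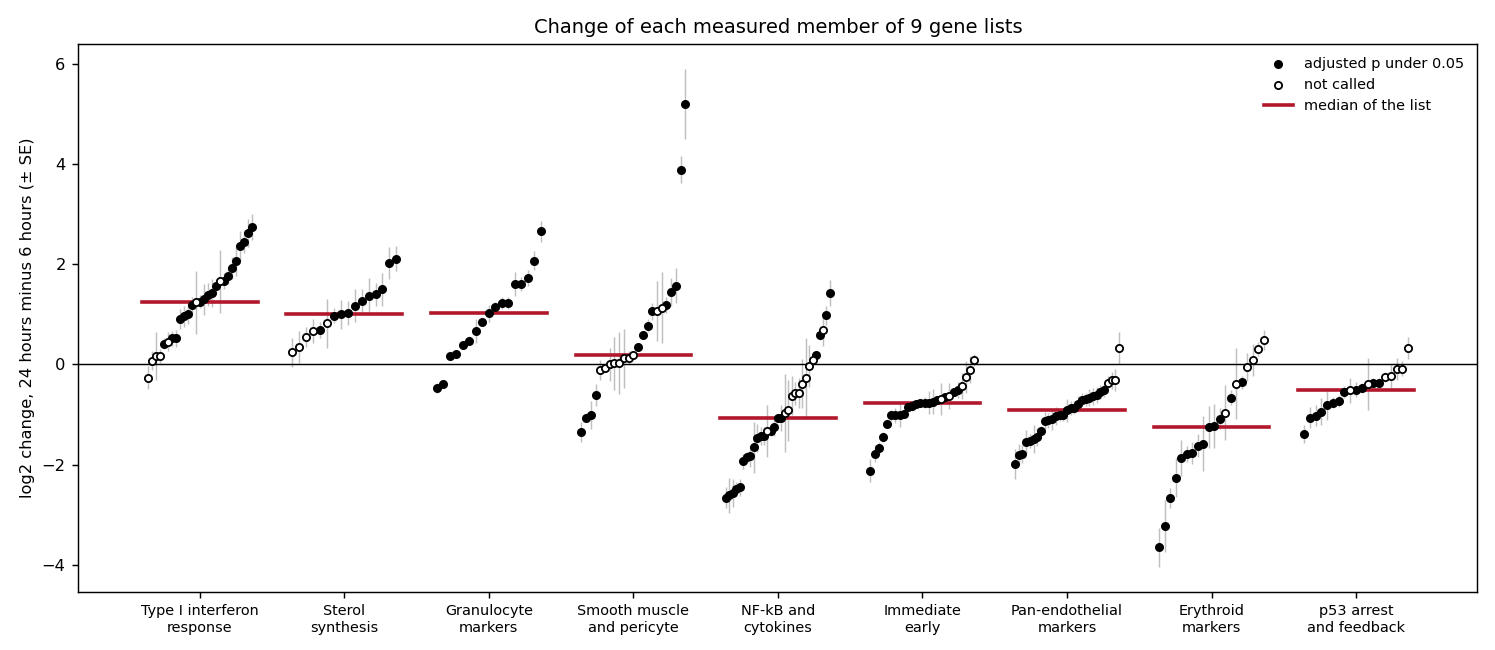
Log2 change, 24 hours minus 6 hours (± SE), of each measured member of 9 gene lists, sorted within a list; filled points were called in the 4-group model, open points were not, and red lines are the list medians. Medians run from 1.25 for type I interferon genes to -1.24 for erythroid markers.

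Endothelial markers were lower at 24 hours than at 6 hours. Of 29 pan-endothelial genes 25 fell and 0 rose (26 and 0 on the 10 arrays), against 10.1% of all genes, and the median change was -0.92. With the Gapdh covariate 10 fell. The mean log2 signal of the list lay between 10.30 and 10.36 at 24 hours, between 11.24 and 11.33 at 6 hours and between 9.71 and 9.84 without irradiation, so both irradiated groups stood above the baseline. In bulk RNA, fewer cells of a type and less RNA per cell cannot be told apart. Markers of other cells moved at the same time: the mean log2 signal of 17 granulocyte markers was 12.22 to 12.40 at 24 hours, 11.26 to 11.44 at 6 hours and 12.07 to 12.25 without irradiation, and that of 16 pan-leukocyte markers was 11.07 to 11.23 at 24 hours, 10.71 to 11.04 at 6 hours and 11.06 to 11.26 without irradiation. No member of either list was at or below background on all 10 arrays. The part of RNA from blood cells in the endothelial changes was not tested.

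Cdh5, or VE-cadherin, which names the cells, had signals of 5019, 5097, 4680, 4706 and 4950 at 24 hours, against 7631, 8328, 8560, 9309 and 10944 at 6 hours. The 24-hour arrays were tightly grouped and all lower, and the non-irradiated mean was 3186 ± 494 (log2 change -0.86 ± 0.12, limma adjusted p = 8.49e-06). Pecam1, a junctional adhesion molecule, had signals of 1563, 2101, 1713, 1699 and 1411 at 24 hours, against 3623, 2300, 2886, 4899 and 4002 at 6 hours. Its groups came close without overlapping (log2 change -1.02 ± 0.18, limma adjusted p = 9.08e-05). Cldn5, the claudin of endothelial tight junctions, had signals of 518, 593, 552, 525 and 598 at 24 hours, against 2173, 2738, 1705, 1390 and 1831 at 6 hours. The 24-hour mean of 557 was nearly that of non-irradiated cells, 556 (log2 change -1.78 ± 0.18). The transcription factors Sox7 and Sox17 averaged 218 ± 48.5 at 24 hours and 894 ± 269.9 at 6 hours for Sox7 and 733 ± 180.2 at 24 hours and 2177 ± 719.5 at 6 hours for Sox17 (log2 changes -1.99 ± 0.30 and -1.54 ± 0.24), and Rasip1, a Ras-interacting protein needed for vessel lumens, 1227 ± 134 at 24 hours and 4310 ± 580.1 at 6 hours (log2 change -1.81 ± 0.21). Clec14a, Icam2, Kdr and S1pr1 were not called in the 4-group model.

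Sinusoidal markers fell in 8 of 17 members and rose in 4 (8 and 1 on the 10 arrays, 6 and 1 with the covariate). Over the members the median was -0.37. Stab1, or stabilin-1, a scavenger receptor of sinusoids, had signals of 939, 1189, 1106, 1257 and 1597 at 24 hours, against 3415, 4158, 6127, 4483 and 5053 at 6 hours. Each 24-hour array was under each 6-hour array, and both groups exceeded the non-irradiated mean of 550.2 ± 73 (log2 change -1.93 ± 0.19, limma adjusted p = 2.79e-08). Lyve1, a hyaluronan receptor, averaged 149 ± 51.4 at 24 hours and 459 ± 165 at 6 hours with overlap (log2 change -1.58 ± 0.34). Clec4g, a lectin of liver sinusoids, was at or below background on all 5 arrays at 24 hours and on 3 at 6 hours, with overlap, so no fold is given. Its log2 change of -2.76 ± 0.75 was called (limma adjusted p = 0.00798). That change was -1.44 with signals raised to background and -0.72 with the covariate, where it was not called. Lrp1, an endocytic receptor that many cell types share, was the member that stayed higher in both fits, with signals of 4030, 3519, 4187, 3645 and 3802 at 24 hours, against 942, 1761, 1593, 1087 and 1813 at 6 hours. No 6-hour array of Lrp1 came near the 24-hour arrays (log2 change 1.46 ± 0.15, limma adjusted p = 4.97e-08).

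Arterial and Notch genes were mixed. Of 17 arterial markers 7 rose and 4 fell in both fits (4 and 3 with the covariate), with a median of -0.18, which was 0.33 without replicate 2 at 24 hours and 0.60 with the covariate. Edn1, the vasoconstrictor endothelin-1, had signals of 233, 385, 186, 197 and 261 at 24 hours, against 1420, 1877, 1409, 1214 and 1327 at 6 hours. The 6-hour arrays stood far above all others, the non-irradiated mean being 66.1 ± 36.2 (log2 change -2.55 ± 0.37, limma adjusted p = 1.03e-05). Bmx, a Tec-family kinase of arterial endothelium, was higher at 24 hours, 179 ± 72.7 at 24 hours and 25 ± 23 at 6 hours, and 3 of 5 arrays were at or below background at 6 hours (log2 change 3.20 ± 0.53, and 1.87 with signals raised to background). Hey2, a Notch target that sets arterial fate, averaged 162 ± 107 at 24 hours and 22.2 ± 16 at 6 hours, with 4 of 5 arrays at or below background at 6 hours (log2 change 2.84 ± 0.56, and 1.56 with signals raised to background). In the Notch list 6 of 17 rose and 4 fell (4 and 4 on the 10 arrays, 2 and 2 with the covariate). The list's median change was 0.05. Lfng, which glycosylates Notch receptors, averaged 1919 ± 241 at 24 hours and 515 ± 103 at 6 hours (log2 change 1.91 ± 0.17, limma adjusted p = 3.71e-09). The ligand Jag2, at 299 ± 78 at 24 hours and 762 ± 248 at 6 hours, and the endothelial receptor Notch4, at 580.1 ± 174 at 24 hours and 1521 ± 537 at 6 hours, fell (log2 changes -1.33 ± 0.30 and -1.36 ± 0.27).

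Among 24 genes of VEGF, angiopoietin and sprouting signals 8 fell and 6 rose (10 and 4 on the 10 arrays, 2 and 2 with the covariate). Their median was -0.30. The receptor Flt1, or Vegfr1, averaged 2068 ± 162 at 24 hours and 5230 ± 593 at 6 hours against a non-irradiated mean of 2092 ± 171 (log2 change -1.33 ± 0.11, limma adjusted p = 1.20e-09). Adm, the peptide adrenomedullin, averaged 7250 ± 1598 at 24 hours and 14557 ± 1707 at 6 hours (log2 change -1.02 ± 0.13), and Pdgfb, which attracts pericytes, 304 ± 58.8 at 24 hours and 639 ± 210.4 at 6 hours (log2 change -1.03 ± 0.32). The call for Pdgfb was lost without replicate 5 at 24 hours or replicate 5 at 6 hours (limma adjusted p = 0.0523 and 0.0545). The ligand Angpt1, which activates Tek and is made by stroma and platelets, rose, with 1916 ± 307 at 24 hours and 777 ± 317 at 6 hours (log2 change 1.38 ± 0.23, limma adjusted p = 6.51e-05).

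Genes of coagulation and vessel tone fell in 8 of 19 members and rose in 1, in both fits (3 and 0 with the covariate). The median over the list was -0.51. Vwf, the platelet-tethering factor stored in endothelium and megakaryocytes, averaged 802 ± 126 at 24 hours and 2189 ± 326 at 6 hours (log2 change -1.45 ± 0.17, limma adjusted p = 4.68e-07), and Tfpi, the inhibitor of tissue factor, 5190 ± 486 at 24 hours and 11667 ± 1612 at 6 hours (log2 change -1.16 ± 0.10). F3, tissue factor itself, was the member that rose. Its 5 arrays at 6 hours were all at or below background, so it was at least 2.12-fold higher at 24 hours, with means of 88.6 ± 15.9 at 24 hours and 18.1 ± 12.5 at 6 hours (limma adjusted p = 0.0268), and its adjusted p was between 0.0515 and 0.0728 without replicate 1, 3 or 4 at 24 hours or replicate 4 or 5 at 6 hours.

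Of 24 semaphorins, plexins and neuropilins, guidance molecules shared by nerves and vessels, 6 fell and 7 rose (7 and 4 on the 10 arrays, 2 and 1 with the covariate). Over the members the median was 0.05. The secreted class 3 members Sema3a, Sema3f and Sema3g fell, with 449 ± 62.5 at 24 hours and 2070 ± 836 at 6 hours for Sema3a, 61.3 ± 33.7 at 24 hours and 352 ± 78 at 6 hours for Sema3f and 709.6 ± 230.4 at 24 hours and 1860 ± 392 at 6 hours for Sema3g (log2 changes -2.10 ± 0.25, -2.66 ± 0.60 and -1.43 ± 0.27). Sema3c rose, with 214 ± 102 at 24 hours and 72.8 ± 15 at 6 hours (log2 change 1.46 ± 0.36). The transmembrane Sema5a and Sema4f, outside that list, were among the 12 largest rises, with 2091 ± 116 at 24 hours and 323 ± 323 at 6 hours for Sema5a and 409.9 ± 149 at 24 hours and 19 ± 25.3 at 6 hours for Sema4f; 4 of 5 arrays of Sema4f were at or below background at 6 hours, and the 4 probe sets of Sema5a ranged from -1.42 to 3.42.

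Contractile genes of smooth muscle rose in part. Of 23 smooth muscle and pericyte genes 9 rose and 4 fell (9 and 3 on the 10 arrays, 2 and 2 with the covariate). The list's median change was 0.19. Acta2, smooth muscle actin, had signals of 7206, 8093, 8255, 7131 and 7516 at 24 hours, against 784, 697, 529, 255 and 481 at 6 hours. The 24-hour arrays lay at least 9-fold above every 6-hour array, and the non-irradiated mean was 195 ± 79.3 (log2 change 3.89 ± 0.28, limma adjusted p = 1.10e-10). The 3 probe sets of Acta2 gave changes between 0.62 and 3.89, and its call was lost when probe sets open to cross-hybridization were left out. Tagln, or transgelin, had signals of 2034, 2440, 1965, 2232 and 2183 at 24 hours, against 775, 743, 783, 563 and 1213 at 6 hours. It did not overlap, and the 24-hour mean of 2171 compares with 125 in non-irradiated cells (log2 change 1.45 ± 0.28, limma adjusted p = 3.72e-04). Actg2, the enteric smooth muscle actin, averaged 275 ± 39.5 at 24 hours and 20.6 ± 38.7 at 6 hours, with 4 of 5 arrays at or below background at 6 hours (log2 change 5.20 ± 0.70, and 2.56 with signals raised to background). The pericyte channel genes Kcnj8 and Abcc9, and Mcam, were among the 4 that fell. The CArG element was searched in the same windows as CC, 6 letters of A or T, and GG, without mismatches. It stood in the promoters of Cnn2 and Myl9, 2 of 6 rising members with a promoter (33.3%). These 2 were the only matches among the 18 measured members with a promoter (11.1%). The share was 1.43% for genes on the array and 1.62% for all promoters.

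Stromal and osteoblast markers rose in 9 of 17 members and fell in 5, in both fits (7 and 0 with the covariate). Their median was 0.27. Postn, or periostin, averaged 1622 ± 109.8 at 24 hours and 513 ± 142 at 6 hours (log2 change 1.70 ± 0.20, limma adjusted p = 3.17e-07), and Col3a1, a fibrillar collagen, 4408 ± 181 at 24 hours and 1649 ± 391 at 6 hours (log2 change 1.46 ± 0.14). Sp7, or osterix, a transcription factor of osteoblasts, averaged 2175 ± 70.7 at 24 hours and 868 ± 139.9 at 6 hours (log2 change 1.34 ± 0.15), and the mesenchymal receptor Pdgfra 2400 ± 233 at 24 hours and 1117 ± 477 at 6 hours (log2 change 1.20 ± 0.20). Col1a1, Col1a2, Ibsp, Lepr and Cxcl12 were the 5 that fell, among them chains of bone collagen and the leptin receptor of marrow stroma. Those falls depend on the scaling: after quantile normalization 11 members rose and 0 fell, with changes of -0.09 for Col1a1, 0.05 for Col1a2, 0.10 for Ibsp and -0.08 for Lepr, none of them called. Of 21 basement membrane and matrix genes 9 rose and 2 fell (7 and 2 on the 10 arrays, 4 and 0 with the covariate). The median over the list was 0.06. The laminin chains Lamb1 and Lama4 averaged 5550 ± 118 at 24 hours and 2780 ± 353 at 6 hours for Lamb1 and 2408 ± 293 at 24 hours and 1177 ± 200.4 at 6 hours for Lama4 (log2 changes 1.01 ± 0.12 and 1.04 ± 0.15), while Lama5 averaged 337 ± 87.8 at 24 hours and 790.2 ± 234 at 6 hours (log2 change -1.20 ± 0.31). The call for Lama5 was lost on the mean of its probe sets and when probe sets open to cross-hybridization were left out.

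Of 18 matrix proteases and inhibitors 7 rose and 3 fell in both fits (2 and 2 with the covariate). Over the members the median was 0.05. Adamts1, which cleaves versican, averaged 3779 ± 60.3 at 24 hours and 9297 ± 133 at 6 hours (log2 change -1.30 ± 0.07, limma adjusted p = 3.63e-12), a fall to near the non-irradiated mean of 3578 ± 334. Mmp9, a gelatinase stored by neutrophils and listed with the granulocyte markers too, averaged 2473 ± 143 at 24 hours and 1062 ± 142 at 6 hours (log2 change 1.23 ± 0.13).

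TGF-beta and BMP signals rose in 8 of 25 members and fell in 4, in both fits (2 and 3 with the covariate). The list's median change was 0.29. Inhbb, the activin B chain, had signals of 554, 409, 650, 479 and 606 at 24 hours, against 3619, 2559, 3337, 3580 and 3358 at 6 hours. The gap between groups was wide, and the non-irradiated mean was 206 ± 79.6 (log2 change -2.62 ± 0.27, limma adjusted p = 6.93e-08). The ligand Tgfb3 averaged 692 ± 89.8 at 24 hours and 213 ± 76.6 at 6 hours (log2 change 1.76 ± 0.28), Ltbp2, a latent TGF-beta binding family protein of the matrix, 5091 ± 318 at 24 hours and 2141 ± 624 at 6 hours (log2 change 1.29 ± 0.14), and Smad6, an inhibitor of BMP signalling, 1893 ± 148 at 24 hours and 669 ± 395 at 6 hours (log2 change 1.68 ± 0.27). Gdf10, a ligand of the same superfamily that is outside the list, had signals of 1429, 1536, 1218, 1090 and 1124 at 24 hours, against 7, 12, 193, 127 and 81.9 at 6 hours. Its 24-hour arrays lay above all 6-hour arrays, 2 of 5 arrays being at or below background at 6 hours (log2 change 4.78 ± 0.57, and 4.03 with signals raised to background, limma adjusted p = 5.84e-07).

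Factors that endothelial and stromal cells supply to blood-forming cells moved in both directions. Among 23 such niche factors 8 rose and 7 fell (7 and 6 on the 10 arrays, 4 and 2 with the covariate). Their median was 0.10. After quantile normalization 12 rose and 5 fell, with a median of 0.43, and with all probe sets of a gene averaged 11 rose and 6 fell, with a median of 0.48. Without replicate 2 at 24 hours 8 rose and 6 fell, with a median of 0.35. Il7, the cytokine that lymphoid progenitors need, had signals of 2918, 3023, 2816, 2762 and 3377 at 24 hours, against 409, 350, 180, 255 and 296 at 6 hours. The 24-hour arrays were at least 6-fold above every 6-hour array, and the non-irradiated mean was 447 ± 137 (log2 change 3.37 ± 0.23, limma adjusted p = 5.57e-11). The other probe set of Il7 gave 3.13. Kitl, or stem cell factor, had signals of 4729, 6002, 5501, 5060 and 5307 at 24 hours, against 2807, 3007, 3460, 3231 and 2352 at 6 hours. All 24-hour arrays were higher, against a non-irradiated mean of 3455 ± 261, and all 4 probe sets changed in the same direction (log2 change 0.85 ± 0.10, limma adjusted p = 4.18e-07). Cxcl12, the chemokine that retains stem cells in marrow, had signals of 20892, 19545, 23760, 16278 and 19158 at 24 hours, against 26154, 23665, 29501, 22405 and 28695 at 6 hours. The groups overlapped, and the change of -0.39 ± 0.09 was called (limma adjusted p = 0.00164), but another of its 3 probe sets gave 0.31 and the sign turned to 0.16 after quantile normalization.

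Fgf23, a hormone of phosphate balance made mainly by osteocytes, had signals of 184, 118, 99.2, 183 and 200 at 24 hours, against 1571, 2872, 1958, 3239 and 3270 at 6 hours. It headed the 12 largest falls, and 24-hour levels were still above the non-irradiated mean of 25.1 ± 12.9 (log2 change -4.03 ± 0.42, limma adjusted p = 7.95e-08). Fgf2, a growth factor of endothelium and stroma, averaged 304 ± 72.7 at 24 hours and 79.8 ± 99.7 at 6 hours with overlap, and 2 of 5 arrays were at or below background at 6 hours (log2 change 2.86 ± 0.65, and 2.05 with signals raised to background). Igf1 and Wnt5a, a growth factor and a Wnt ligand, rose too (log2 changes 1.87 ± 0.16 and 1.95 ± 0.35); these 2 were picked for mention after their values were seen.

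RNA of maturing blood cells differed between the times. Erythroid markers fell in 14 of 20 members and rose in 0 (9 and 0 on the 10 arrays, 6 and 0 with the covariate), with a median of -1.24. Their mean log2 signal was 6.95 to 7.21 at 24 hours, 7.95 to 8.63 at 6 hours and 11.04 to 11.23 without irradiation, and the median difference from the non-irradiated arrays was -4.87 at 24 hours and -2.74 at 6 hours. Slc4a1, the anion exchanger of red cells, had signals of 398, 321, 255, 181 and 281 at 24 hours, against 1319, 1580, 2274, 3128 and 1167 at 6 hours. Both groups were far below the non-irradiated mean of 12749 ± 399, and they did not overlap (log2 change -2.67 ± 0.20, limma adjusted p = 2.80e-10). Klf1, the erythroid transcription factor, averaged 134 ± 39.2 at 24 hours and 430.3 ± 174 at 6 hours (log2 change -1.63 ± 0.23), against 5693 ± 288 without irradiation. Sptb, red cell spectrin, was at or below background on all 5 arrays at 24 hours, so it was at least 4.61-fold lower (means 12.2 ± 10.6 at 24 hours and 128 ± 30.4 at 6 hours, limma adjusted p = 9.46e-08). The globin gene Hba-a1 was not called.

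Granulocyte markers rose in 15 of 17 members and fell in 2 (12 and 2 on the 10 arrays, 9 and 0 with the covariate). The median over the list was 1.02. Ltf, or lactoferrin, of the specific granules, had signals of 7803, 10186, 10125, 8115 and 9220 at 24 hours, against 4200, 2899, 2905, 1862 and 3433 at 6 hours. The 24-hour arrays lay above all 6-hour arrays and around the non-irradiated mean of 8560 ± 784 (log2 change 1.61 ± 0.14, limma adjusted p = 4.08e-09). Elane, neutrophil elastase, had signals of 3359, 3683, 4208, 3601 and 3775 at 24 hours, against 1077, 1483, 601, 1321 and 1427 at 6 hours. It did not overlap (log2 change 1.72 ± 0.16, limma adjusted p = 1.71e-08). Fcnb, a ficolin, averaged 2653 ± 233 at 24 hours and 674 ± 285 at 6 hours (log2 change 2.07 ± 0.19), and Itgb2l, an integrin subunit relative of neutrophils, 1183 ± 153 at 24 hours and 197 ± 78.1 at 6 hours (log2 change 2.66 ± 0.20), although 1 of its 3 probe sets gave -1.27. S100a8 and S100a9, the calprotectin chains, were the 2 that fell, with overlapping groups (log2 changes -0.39 ± 0.08 and -0.47 ± 0.09). After quantile normalization all 17 members rose, S100a8 by 0.18 and S100a9 by 0.13, so the direction of these 2 depends on the scaling.

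Among the 22 markers of monocytes and macrophages 8 rose and 3 fell (5 and 3 on the 10 arrays, 4 and 2 with the covariate). Over the members the median was 0.55. With signals raised to background 10 rose and 7 fell, and the median was 0.11. The median was 0.17 with the covariate, so its size depends on dim signals and on the fit. C1qa, a complement chain made by macrophages, was at or below background on all 5 arrays at 6 hours and at least 2.58-fold higher at 24 hours, with means of 109 ± 24.2 at 24 hours and 7.47 ± 2.06 at 6 hours (limma adjusted p = 3.03e-06). C1qc averaged 178 ± 33.6 at 24 hours and 13.5 ± 19.7 at 6 hours, with 4 of 5 arrays at or below background at 6 hours (log2 change 4.38 ± 0.72, and 2.00 with signals raised to background). Fcgr4, an IgG receptor, averaged 279.5 ± 97.8 at 24 hours and 77.6 ± 38.3 at 6 hours (log2 change 1.93 ± 0.35), and Hmox1, the haem-degrading enzyme, 2150 ± 166 at 24 hours and 894 ± 183 at 6 hours against 338 ± 80.1 without irradiation (log2 change 1.29 ± 0.17). Pan-leukocyte markers rose in 7 of 16 members and fell in 1, in both fits (3 and 0 with the covariate). The list's median change was 0.20. Rac2, a blood-cell GTPase, averaged 2141 ± 184 at 24 hours and 782 ± 154 at 6 hours (log2 change 1.47 ± 0.14). Ptprc, or CD45, had signals of 4503, 3674, 3529, 3637 and 3713 at 24 hours, against 2900, 2404, 2750, 2158 and 3396 at 6 hours. It stayed above the 6-hour arrays on each 24-hour array (log2 change 0.50 ± 0.11, limma adjusted p = 0.00126), with a second probe set at -0.90.

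Basophil and mast cell, megakaryocyte and progenitor markers fell. Of 10 mast cell and basophil markers 5 fell and 1 rose in both fits (5 and 1 with the covariate). Their median was -1.25. Mcpt8, a basophil protease, had signals of 423, 550, 419, 410 and 422 at 24 hours, against 3655, 1943, 3642, 3657 and 2904 at 6 hours. Even its highest 24-hour array lay under the lowest 6-hour array (log2 change -2.80 ± 0.18, limma adjusted p = 3.03e-11). Cpa3, carboxypeptidase of mast cells and basophils, averaged 198 ± 58 at 24 hours and 901 ± 239 at 6 hours (log2 change -2.18 ± 0.26), and Ms4a2, the beta chain of the IgE receptor, 278 ± 62.1 at 24 hours and 1002 ± 169 at 6 hours (log2 change -1.87 ± 0.22). Megakaryocyte and platelet markers fell in 10 of 15 members and rose in 1, in both fits (5 and 0 with the covariate), with a median of -1.02, and their mean log2 signal was 9.96 to 10.11 at 24 hours, 10.83 to 11.03 at 6 hours and 9.47 to 9.65 without irradiation. Itga2b, the platelet integrin, averaged 634 ± 54.7 at 24 hours and 1609 ± 383 at 6 hours (log2 change -1.31 ± 0.19), and Clec1b, the podoplanin receptor, 885 ± 165 at 24 hours and 2356 ± 272 at 6 hours (log2 change -1.43 ± 0.23). Vwf and Fli1 stand in this list and in the endothelial list.

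Of 16 stem and progenitor markers 10 fell and 0 rose (8 and 0 on the 10 arrays, 3 and 0 with the covariate). The median over the list was -0.67. Tal1 and Gata2, transcription factors of early blood cells and of endothelium, averaged 260.1 ± 70.7 at 24 hours and 1040 ± 393 at 6 hours for Tal1 and 1097 ± 100.5 at 24 hours and 2993 ± 625 at 6 hours for Gata2 (log2 changes -1.95 ± 0.22 and -1.42 ± 0.14). Flt3, a receptor of multipotent and lymphoid progenitors, averaged 53.9 ± 36.5 at 24 hours and 509 ± 599.9 at 6 hours, without overlap and with 1 array at or below background at 24 hours (log2 change -3.14 ± 0.65, and -2.69 with signals raised to background, limma adjusted p = 7.72e-04). Of 16 B-lineage markers 3 fell and 1 rose (2 and 1 on the 10 arrays, 0 and 1 with the covariate), with a median of -0.64, and of 15 T and NK markers 4 fell and 0 rose (3 and 0 on the 10 arrays, 0 and 1 with the covariate). The T and NK median was -0.62. With dim genes left out 0 T and NK markers fell. There were 2 falls without replicate 1, 3, 4 or 5 at 24 hours or replicate 1, 4 or 5 at 6 hours. The calls for Cd2 and Cd4 were each lost in 8 of the 10 fits that left out an array. Cd22, an inhibitory receptor of B cells, averaged 24.2 ± 17.6 at 24 hours and 165 ± 19 at 6 hours, with 3 of 5 arrays at or below background at 24 hours (log2 change -3.01 ± 0.46, and -2.42 with signals raised to background), whereas Ebf1, which stromal cells express as well, was higher at 1914 ± 204 at 24 hours and 1034 ± 396 at 6 hours (log2 change 0.98 ± 0.19). Gzmb, the granzyme of killer cells, averaged 30.3 ± 23.6 at 24 hours and 231 ± 104 at 6 hours, with 2 of 5 arrays at or below background at 24 hours (log2 change -3.08 ± 0.52, and -2.68 with signals raised to background, limma adjusted p = 7.95e-05). Ncr1, an NK receptor, was at or below background on all 5 arrays at 24 hours and on 3 at 6 hours.

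Of 16 sterol synthesis genes 11 rose and 0 fell (9 and 0 on the 10 arrays, 2 and 0 with the covariate). The list's median change was 1.02. Fdps, farnesyl diphosphate synthase, had signals of 435, 466, 599, 342 and 449 at 24 hours, against 145, 97.2, 140, 62.1 and 96.5 at 6 hours. All 24-hour arrays lay above the 6-hour arrays, and the non-irradiated mean of 208 ± 36 stood between them (log2 change 2.11 ± 0.25, limma adjusted p = 3.97e-07), but the second probe set gave -1.70. Sc5d, a late enzyme of the pathway, averaged 1059 ± 153 at 24 hours and 311 ± 206 at 6 hours (log2 change 2.02 ± 0.32), and its 3 probe sets changed in the same direction. Srebf2, the transcription factor that controls the pathway, averaged 1699 ± 197 at 24 hours and 689.9 ± 325 at 6 hours (log2 change 1.40 ± 0.22, limma adjusted p = 4.07e-05). Dhcr7, the final reductase, averaged 1387 ± 114 at 24 hours and 608 ± 380.1 at 6 hours (log2 change 1.50 ± 0.33), and its change was -1.15 in the fit with the Gapdh covariate, where it was not called.

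Of 17 NRF2 and antioxidant genes 4 rose and 2 fell in both fits (1 and 0 with the covariate), with a median of 0.29. Sod3, the extracellular superoxide dismutase, had signals of 1556, 1611, 1581, 1283 and 1364 at 24 hours, against 142, 143, 561, 108 and 228 at 6 hours. The 24-hour arrays lay clear of the 6-hour arrays, of which 1 was well above the rest, and of the non-irradiated mean of 154 ± 40.5 (log2 change 2.91 ± 0.31, limma adjusted p = 9.24e-08). Of the subunits of the enzyme that begins glutathione synthesis, Gclm averaged 894 ± 105 at 24 hours and 532 ± 62.7 at 6 hours (log2 change 0.75 ± 0.13) and Gclc 414 ± 83.1 at 24 hours and 772 ± 211 at 6 hours (log2 change -0.87 ± 0.18), with 2000 ± 109 and 2562 ± 174 in non-irradiated cells. The second probe set of Gclm changed by -0.33, and its call was lost on the mean of probe sets (limma adjusted p = 0.363). With the covariate the change of Gclc was 0.018 and was not called. Of 15 glycolysis genes 5 rose and 1 fell (4 and 1 on the 10 arrays, 2 and 0 with the covariate), with a median of 0.05, among them Pgk1 at 3795 ± 190.4 at 24 hours and 2084 ± 465 at 6 hours (log2 change 0.89 ± 0.13), while the glucose transporter Slc2a1 fell, at 2106 ± 248 at 24 hours and 3881 ± 1358 at 6 hours (log2 change -0.83 ± 0.18, and 0.018 with the covariate, where it was not called). Of 24 oxidative phosphorylation genes 6 rose and 0 fell (2 and 0 on the 10 arrays, 1 and 0 with the covariate), with a median of 0.16, among them Atp5b at 6975 ± 578 at 24 hours and 4898 ± 382 at 6 hours (log2 change 0.51 ± 0.08).

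Of 18 clock genes 3 rose and 1 fell (2 and 1 on the 10 arrays, 1 and 0 with the covariate), with a median of 0.00. The hours of collection are not given in the sources used here. Nr1d1, a repressor of the clock, averaged 1315 ± 133 at 24 hours and 680.2 ± 179.7 at 6 hours (log2 change 0.99 ± 0.20), and Dbp, a clock output factor, 1973 ± 394 at 24 hours and 1055 ± 431 at 6 hours with overlap (log2 change 0.98 ± 0.23). Of 8 genes often used as references, Pgk1 rose and Actb, B2m and Ywhaz fell in both fits (1 and 0 with the covariate), with a median of 0.04. Actb averaged 20730 ± 2512 at 24 hours and 27774 ± 2716 at 6 hours (log2 change -0.42 ± 0.08), and its change was 0.17 after quantile normalization, so its direction depends on the scaling.

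The remaining genes among the 12 largest rises and 12 largest falls without overlap lie outside these lists. Sfrp2, a secreted modulator of Wnt signalling, had signals of 944, 685, 677, 951 and 992 at 24 hours, against 4.12, 11.6, 32.8, 17.5 and 82.8 at 6 hours. The 6-hour signals were at or below background on 4 of 5 arrays, and every 24-hour array was more than 8-fold above the highest of them (log2 change 5.38 ± 0.57, and 4.20 with signals raised to background, limma adjusted p = 9.02e-08). Qpct, glutaminyl cyclase, averaged 928 ± 58.8 at 24 hours and 107 ± 24.8 at 6 hours (log2 change 3.14 ± 0.28), Gca, the granulocyte calcium-binding protein grancalcin, 856 ± 112 at 24 hours and 138 ± 155 at 6 hours (log2 change 3.12 ± 0.37), and Ipcef1, a partner of cytohesins, 614 ± 91.4 at 24 hours and 71 ± 19.5 at 6 hours (log2 change 3.13 ± 0.26). Mgam, an intestinal maltase, Lin28a, which blocks let-7 processing, and Lrrn1, a leucine-rich repeat membrane protein, averaged 1059 ± 181 at 24 hours and 81.5 ± 95 at 6 hours for Mgam, 604 ± 189 at 24 hours and 42.6 ± 52.7 at 6 hours for Lin28a and 683 ± 143 at 24 hours and 73.7 ± 85.3 at 6 hours for Lrrn1, and 3 of 5 arrays of each were at or below background at 6 hours. Their non-irradiated means were 776 ± 85.4, 469 ± 189 and 189.7 ± 20.9, so the 24-hour and the baseline levels both exceeded those at 6 hours. Among the falls, Muc13, a membrane mucin, averaged 344 ± 63.1 at 24 hours and 2419 ± 1059 at 6 hours (log2 change -2.74 ± 0.25), Rbpjl, a relative of the Notch effector Rbpj, 23.1 ± 9.88 at 24 hours and 230.5 ± 97.2 at 6 hours with 3 of 5 arrays at or below background at 24 hours (log2 change -3.29 ± 0.60, and -2.85 with signals raised to background), and Vwa3a was at or below background on all 5 arrays at 24 hours, which makes it at least 6.2-fold lower (limma adjusted p = 7.76e-06), with a second probe set at 1.17.

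**Figure D5:**
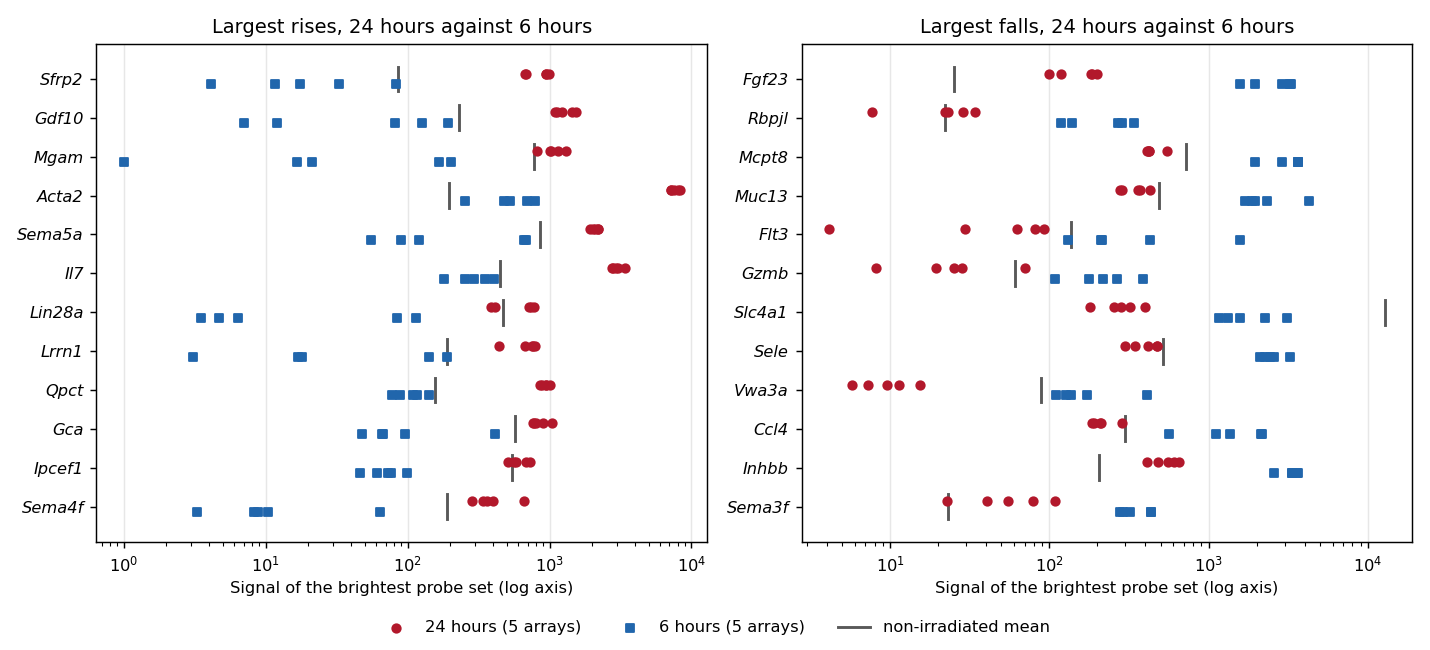
Signal on each array (log axis) of the 12 genes with the largest rises and the 12 with the largest falls among called genes whose groups do not overlap, with 24-hour arrays as red circles, 6-hour arrays as blue squares and the non-irradiated mean as a grey bar. The 24-hour points lie right of all 6-hour points in the left panel and left of them in the right panel, and the baseline of Slc4a1 lies far above both.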

How the data were processed

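RNA of bone marrow VE-cadherin+ cells was measured on 20 Affymetrix arrays, with 5 arrays at 24 hours and 5 at 6 hours after 5 Gy compared here. Total RNA from a Qiagen RNeasy micro kit was amplified with NuGEN Ovation chemistry and biotin labelled, per the labels' protocols. The deposited table holds linear probe set intensities that the authors had brought to a common scale: the values show a mean of 500 on each array once 2% is trimmed from either end. Affymetrix Expression Console and the Transcriptome Analysis Console are listed in the submitters' processing notes. How probes were summarized is not given in the sources used here. Precision is limited by the number of arrays.

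The platform annotation gives 34945 of 45101 probe sets 1 symbol and 932 several; 9160 were unnamed here and 64 were controls. The brightest probe set by its mean over all arrays stood for each gene, which gave 18193 genes, of which 9010 had more than 1 probe set, without a filter on dim signals. Intensities were taken as log2(signal + 1) and fitted in R 4.3.3 with limma 3.58.1 (lmFit, eBayes with an intensity trend) in a model of all 4 groups. The contrast was 24 hours minus 6 hours, two-sided, and a gene was called where p adjusted over all genes by Benjamini-Hochberg was under 0.05. An array's background is the 95th percentile over 27 probe sets for bacterial transcripts absent from the sample. Where every array of a group was at or below background, the fold, if given, is a bound set by that background. Array properties were compared with exact permutation tests. The models were also tested on simulated data.

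The members and gene lists (42 lists, 769 genes measured) were chosen with earlier results of these data known. Genes named are the 12 largest rises and 12 largest falls among called genes without overlap (ranked after raising signals to the array background, without predicted, clone and receptor-segment symbols), up to 4 called members with the largest change of each list or, where fewer than 2 were called, the member with the smallest p, and always Cdh5, Cdkn1a, Cxcl12, Kitl, Mdm2, Mki67, Pecam1 and Ptprc. Other genes, and those named to account for a small count, were picked after their values were seen. Promoters came from RefSeq (GRCm38.p6). Alternatives covered normalization, background, the low-signal filter, the probe set rule, the model, array weights and each array left out. Python 3.11.15 with matplotlib 3.10.9 drew the figures.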

Additional observations from a re-analysis of the deposited data

Results flagged for a closer look

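In each group of 5 arrays the gap between the highest or lowest array and its nearest neighbour was divided by the group's range. Gap and range were taken on log2(signal + 1), and the signals in brackets are linear. Ratios above 0.71, Dixon's 95% critical value for 5, are listed. Over the 177 named genes 354 groups were looked at and 21 passed; chance alone passes about 1 in 20.

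At 24 hours, 10 genes had an array apart. Replicate 1 was highest for Hspa1a (690, ratio 0.751), Ptprc (4503, ratio 0.792) and Tap2 (366, ratio 0.823). Replicate 2 was highest for Hspb1 (2034, ratio 0.834), Mcpt8 (550, ratio 0.898) and Myc (3292, ratio 0.812). Replicate 3 was highest for Lfng (2338, ratio 0.734) and lowest for Lrrn1 (440, ratio 0.719). Replicate 4 was lowest for Kel (1.01, ratio 0.767) and replicate 5 for Plk2 (721, ratio 0.839).

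At 6 hours, 11 genes had an array apart. Replicate 1 was lowest for Col3a1 (998, ratio 0.715). Replicate 2 was lowest for Cd4 (47.7, ratio 0.82), Cdkn1a (5236, ratio 0.81), Inhbb (2559, ratio 0.766) and Myc (5665, ratio 0.735). Replicate 3 was lowest for Lama5 (403, ratio 0.719) and replicate 4 for Erap1 (96.4, ratio 0.726). Replicate 5 was highest for Actg2 (89.8, ratio 0.719), Pdia4 (2735, ratio 0.717) and Sesn1 (2169, ratio 0.805) and lowest for Lyve1 (173, ratio 0.858). The arrays apart were spread over 5 replicates at each time, and their cause was not tested.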

How the results depend on the processing

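The number of genes higher and lower at 24 hours stayed within 1.5 times of 2493 and 1831 under most settings, and the exceptions were these. On the 10 arrays alone 1635 were higher, where the spread is that of these 2 groups alone. With the Gapdh 3′ minus 5′ difference as a covariate, which separates the 2 groups without overlap, 875 were higher and 580 lower. At an adjusted p under 0.01 there were 1604 and 1109, and with a minimum of 2-fold 1231 and 837. Raising signals to each array's background, which is lower at 24 hours, gave 4997 lower by construction. Centring each array on its median gave 1971 higher and 2282 lower, and the share that is higher thus depends on the scaling. Leaving out 1 array at a time gave 2141 to 2587 higher and 1517 to 1890 lower. A common weight per group, added after seeing the data, gave 2090 and 1249.

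The median change of 14 of the 42 lists turned sign under at least 1 alternative. These were the mitosis, replication, homologous recombination, arterial, Notch, basement membrane, matrix protease, semaphorin, niche, glycolysis, heat shock, unfolded protein, clock and control lists, so those medians show no direction.

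Replicate numbers recur in both groups. With the number as a replicate block 2456 were higher and 1770 lower. Correlations between same-numbered arrays lay between 0.003 and 0.049, none was over 0.1, and 3 of 5 arrays at 24 hours correlated best with their own number, so the numbers were not taken as pairs.

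Among named genes, these changes turned sign. After quantile normalization Actb was 0.17, B2m 0.21 and Cxcl12 0.16. When all probe sets of a gene were averaged, Cdc45 was -0.13, Psmb8 -0.10 and Ptprc -0.20. Averaging also left 19 named genes with the same direction but without a call. They were Aurkb, Cd4, Chaf1b, Ciita, Cxcl12, Fbln1, Fdps, Gclm, Itgb2l, Lama5, Myh11, Ndufs4, Notch4, Pax5, Pdia4, Pdia6, Slamf1, Tigar and Vwa3a. Without probe sets open to cross-hybridization the calls for Acta2, Lama5 and Sesn1 were lost. With the covariate Cdc45 was -0.26, Ciart -1.51, Dhcr7 -1.15, Gclc 0.018, Incenp 0.48, Slc2a1 0.018 and Utp20 0.092, and 84 others kept their direction without passing the threshold. Among these 84 were Cxcl12, Elane, Mdm2, Pecam1, Plk2, Ptprc and Tagln, whose signals are listed array by array above. Actg2, Ak1, Atp5b, Bmx, Ccl4, Hey2, Hmox1, Hspa1b, Itga2b, Nr1d1, Sc5d, Smad6, Sox7, Sox17, Srebf2 and Tgfb3 were also among them. On the 10 arrays 17 named genes lost the call they had in the 4-group model. They were Aurkb, Cd2, Cdc45, Ciart, Ckap2, Eme1, Erap1, Hspa1a, Ndufb3, Ndufs4, Pax5, Prim1, Sdhc, Slamf1, Spc25, Tap2 and Tpi1. Cdkn1a was called in neither fit. The cause of these changes was not tested. Signals at or below background limit 1381 genes on all 10 arrays, for which no fold can be read.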

Other observations

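The same genes at day 14, which enter no comparison above, had the following mean signals (SD, n = 5). Among interferon genes, Usp18 averaged 592 ± 59.2, Oas3 762 ± 36.2 and Ifit3 572 ± 44.4, against 1677, 847 and 3677 at 24 hours. Cmpk2 went the other way, with 1561 ± 177 at day 14 against 1106 at 24 hours, so interferon genes showed no common direction. The contractile genes Acta2 and Tagln averaged 164 ± 53.2 for Acta2 and 112 ± 26.7 for Tagln, against 7640 and 2171 at 24 hours. Il7 averaged 555 ± 57.2 and Kitl 3470 ± 209, against 2979 and 5320 at 24 hours. Sele averaged 299 ± 87.3, Fosb 910.5 ± 128 and Cdh5 1293 ± 270.1, against 401, 2973 and 4891 at 24 hours. The red cell exchanger Slc4a1 averaged 16328 ± 1512, against 287 at 24 hours. These differences were not tested here.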
